A study of Mus musculus with 6 samples.

Results

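DNA methylation was examined in the regions where both hSTAT5BN642H libraries were lower than every other library of the study. The genome was divided into tiles of 5000 bp starting at multiples of 5000 bp in GRCm38. A tile was tested if it was autosomal and held 5 or more CpGs that each had 10 or more reads in all 6 libraries. The level of a tile was the plain mean of the methylated shares of these CpGs. Of 44600 tested tiles, 247 (0.554%) had both hSTAT5BN642H libraries at least 5 percentage points below each of the 4 WT and hSTAT5B libraries. The tiles were chosen by these measured levels, so that their loss in hSTAT5BN642H is described here and not tested.

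CD8+ T cells were enriched from the lymph nodes of 13-week-old C57BL/6N mice, with 2 libraries per genotype and 1 mouse per library. WT mice carried no transgene, hSTAT5B mice carried human STAT5B (hSTAT5B +/T), and hSTAT5BN642H mice carried human STAT5B with the N642H change (hSTAT5B N642H +/T). Both transgenes were driven by the Vav1 promoter, which is active throughout the hematopoietic system. Each transgene was represented by 1 line made by pronuclear injection, and the hSTAT5BN642H mice were diseased, so that the mutation cannot be told apart from the line or from the disease. Methylation was read by RRBS, in which MspI fragments are treated with bisulfite and sequenced, so that methylated cytosines stay C in the read while unmethylated ones turn to T.

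Each library covered between 2597893 and 3445555 CpGs, on which 43291086 to 67007186 reads fell, and the median CpG had 5 reads in WT replicate 1, the shallowest at this median, and 11 in hSTAT5BN642H replicate 1, the deepest. WT replicate 1 stood apart at Cd8a, with a mean level of 57.6% within 10 kb against 15.6% to 29.8% in the other libraries. The mean over the 10 CD8+ T cell marker genes was 61.3% and 56.8% in WT, 55.3% and 55.3% in hSTAT5B, and 51.0% and 51.0% in hSTAT5BN642H. The genes of this list differed among themselves. Cd8b1 was at 44.2% and 45.6% in WT and 13.9% and 14.3% in hSTAT5BN642H, Cd3g was at 23.9% to 25.6% in all libraries, and Zap70 within 10 kb was at 67.1% and 66.3% in WT and 68.9% and 70.6% in hSTAT5BN642H. Markers of other cells moved little, with means of 34.0% to 35.2% for 2 CD4+ T cell genes, 54.7% to 58.6% for 7 B cell genes, and 71.5% to 72.8% for 8 myeloid genes. The part of cell composition in the losses was not tested, and a bulk library cannot separate a change within cells from a change in their mixture.

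In mammals, DNA methylation sits mostly on the cytosine of CpG. Most CpGs are methylated, whereas CpG islands at promoters and the active enhancers of a cell type are usually not. As CD8+ T cells mature or respond to antigen, enhancers of lineage and effector genes lose methylation. STAT5B is a transcription factor activated by JAK kinases downstream of IL-2 and related cytokines.

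The sequences of 6 of the 12 tiles with the widest gap are shown as windows of the GRCm38 plus strand (RefSeq), to show which CpGs carried the largest losses. The gap is the lowest of the 4 WT and hSTAT5B libraries minus the higher hSTAT5BN642H library. Capitals mark the CpGs measured in all libraries. The windows upstream of Gzmb and F2rl1 lie between genes, and the other 4 lie in introns and contain no exon.
Gzmb upstream, chr14:56275733-56275872: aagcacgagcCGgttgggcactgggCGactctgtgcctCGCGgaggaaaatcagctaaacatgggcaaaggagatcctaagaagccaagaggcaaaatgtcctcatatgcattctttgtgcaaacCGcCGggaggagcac
F2rl1 upstream, chr13:95567350-95567485: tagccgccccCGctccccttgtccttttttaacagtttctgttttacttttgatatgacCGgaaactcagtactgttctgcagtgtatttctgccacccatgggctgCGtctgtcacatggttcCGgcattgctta
Runx2 intron, chr17:44567453-44567547: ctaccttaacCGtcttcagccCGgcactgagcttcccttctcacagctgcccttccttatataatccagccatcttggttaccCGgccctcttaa
Txndc5 intron, chr13:38503005-38503146: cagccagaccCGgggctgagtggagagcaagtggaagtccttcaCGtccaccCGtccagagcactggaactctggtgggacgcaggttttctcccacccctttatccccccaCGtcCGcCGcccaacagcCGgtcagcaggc
Hoxa3 intron, chr6:52175516-52175786: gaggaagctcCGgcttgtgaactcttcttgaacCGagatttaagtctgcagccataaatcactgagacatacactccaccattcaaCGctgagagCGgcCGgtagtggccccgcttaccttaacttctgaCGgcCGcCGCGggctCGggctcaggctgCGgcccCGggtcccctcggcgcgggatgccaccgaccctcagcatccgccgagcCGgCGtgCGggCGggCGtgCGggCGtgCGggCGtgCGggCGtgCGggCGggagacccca
Ppp3cc intron, chr14:70287746-70287797: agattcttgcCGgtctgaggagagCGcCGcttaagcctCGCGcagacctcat

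In the window upstream of Gzmb all 6 measured CpGs were lower in hSTAT5BN642H, by 26.8 to 44.2 percentage points, with 11 to 58 reads per CpG and library. Each of the 5 CpGs of the Ppp3cc window was lower by 15.5 to 60.1 percentage points. In the Txndc5 window the CpGs were nearly fully methylated outside hSTAT5BN642H, at a mean of 98.2%, and the losses ran from 9.1 to 56.1 percentage points. The Hoxa3 window holds 25 measured CpGs, which averaged 73.7% in WT and hSTAT5B and 38.1% in hSTAT5BN642H. CpGs on the same read are not independent, and no molecular identifiers were used, so that intervals on reads cover counting error only. The tiles were chosen by the means of such CpGs, so that losses at single CpGs follow in part from the choice. Over all tested tiles 47.6% of CpGs were lower in hSTAT5BN642H. None of the motifs TTCNNNGAA (the core of the STAT5 site), TGANTCA (AP-1) and TGTGGT (Runx), searched on both strands, was found in these 6 windows. Over the whole 5000 bp, 77.3%, 72.9%, and 98.4% of the 247 tiles held them, against 78%, 74.7%, and 97.3% of all tested tiles.

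**Figure D1:**
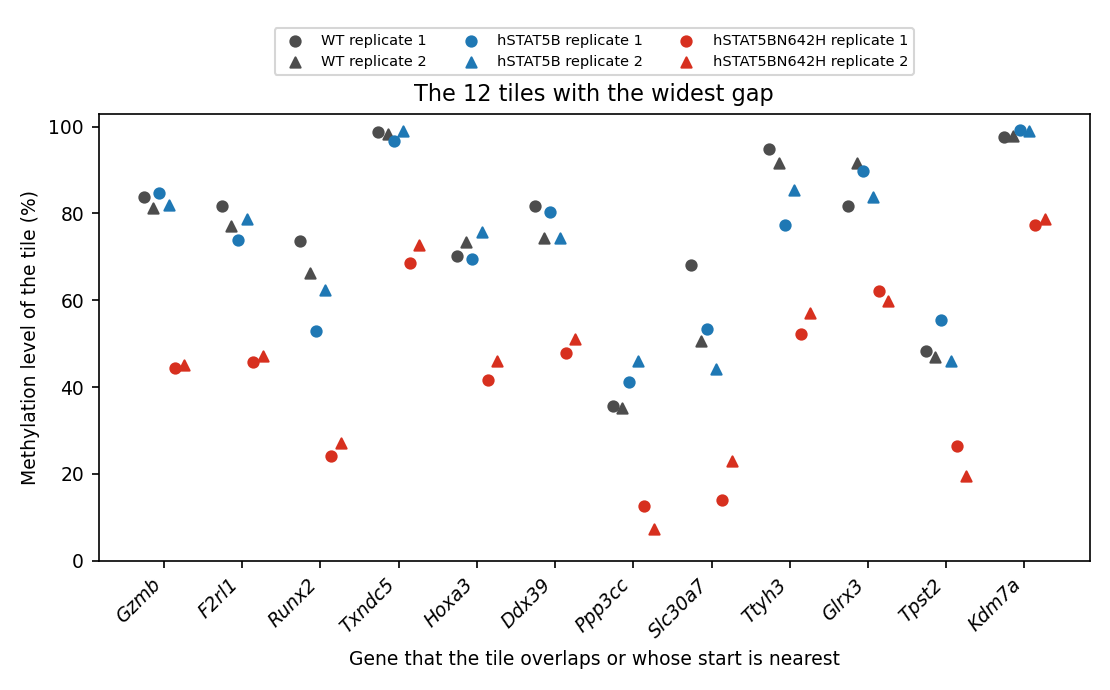
Methylation level in percent (y axis) of the 12 tiles with the widest gap (x axis, by overlapping gene or gene with the nearest start), with 1 point per library, circles for replicate 1 and triangles for replicate 2. Both hSTAT5BN642H points lie at least 18.8 percentage points below every WT and hSTAT5B point in each tile.

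The tile with the widest gap lay 12741 bases upstream of the start of Gzmb, which encodes granzyme B, a protease of cytotoxic granules (chr14:56275001-56280000). Its level was 83.7% and 81.3% in WT, 84.7% and 81.9% in hSTAT5B, and 44.5% and 45.1% in hSTAT5BN642H. The mean was 82.9% ± 1.59 (SD, n = 4) in WT and hSTAT5B and 44.8% ± 0.46 (SD, n = 2) in hSTAT5BN642H. The tile was ranked first by its gap, so that a small spread beside a large difference follows from the choice. Pooled over reads, the hSTAT5BN642H libraries were farther apart, at 49.6% (95% Wilson interval 43.6% to 55.7%) in replicate 1 and 58.8% (52.0% to 65.4%) in replicate 2. The lowest of the other libraries, hSTAT5B replicate 2, was at 86.4% (80.3% to 90.9%).

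At Ppp3cc, a catalytic subunit of calcineurin, the tile holding the transcription start (chr14:70285001-70290000) read 35.7% and 35.2% in WT, 41.2% and 46.1% in hSTAT5B, and 12.7% and 7.3% in hSTAT5BN642H. Here hSTAT5B lay above WT, opposite to the loss in hSTAT5BN642H. Of the 7 measured CpGs of this tile only 28.6% lay within 1 kb of a start. The 5 CpGs of its intronic window averaged 54.6% in WT and hSTAT5B and 12.3% in hSTAT5BN642H. The tile level therefore shows no loss at the start itself. With 5 reads per CpG the difference at Ppp3cc was -10.6 percentage points against -29.5 with 10 reads. The nearest gene start to the tile at chr13:95565001-95570000 was that of F2rl1, a receptor activated by proteases, at 39774 bases, and its levels were 81.8%, 77.0%, 73.8%, and 78.8% in WT and hSTAT5B against 45.7% and 47.1% in hSTAT5BN642H. A tile with its measured CpGs in exons that overlaps both Ddx39, an RNA helicase, and Adgre5, the adhesion receptor CD97 (chr8:83720001-83725000), had 81.7%, 74.3%, 80.3%, and 74.4% against 47.9% and 51.1%. WT and hSTAT5B overlapped at F2rl1 and Adgre5 and not at Ppp3cc.

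An intronic tile of Runx2, a Runx family transcription factor (chr17:44565001-44570000), was at 73.8% and 66.3% in WT, 52.9% and 62.3% in hSTAT5B, and 24.2% and 27.1% in hSTAT5BN642H. It showed the largest mean loss of the 247 tiles, 38.2 percentage points below the mean of WT and hSTAT5B, but also a wide spread among those 4 libraries (SD 8.69). A mean of hSTAT5B over 10 percentage points below WT, with hSTAT5BN642H lower still, was also seen at 2 more of the 12. Slc30a7, a zinc transporter (chr3:115970001-115975000), was at 68.1% and 50.7%, then 53.4% and 44.1%, then 13.9% and 23.0%. The tile of Ttyh3 whose measured CpGs all lie in exons (chr5:140620001-140625000) was at 95% and 91.5%, then 77.4% and 85.5%, then 52.3% and 57.2%. With 20 reads per CpG the difference at Slc30a7 was -20.3 percentage points against -35.6 with 10 reads. At Slc30a7 the WT and hSTAT5B libraries overlapped, and at Ttyh3 and Runx2 they did not.

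The remaining tiles of the 12 differed in their base level. The tile in Txndc5 and Bmp6, a disulfide isomerase and a bone morphogenetic protein (chr13:38500001-38505000), was at 96.8% to 99.0% in WT and hSTAT5B and at 68.6% and 72.7% in hSTAT5BN642H. The tile 73212 bases from the start of Kdm7a, a histone demethylase (chr6:39280001-39285000), was at 97.6% to 99.3% and at 77.5% and 78.8%. The tile near Glrx3, a glutaredoxin (chr7:137475001-137480000), was at 81.8% to 91.5% and at 62.0% and 59.9%. An intronic tile of Tpst2, a tyrosylprotein sulfotransferase (chr5:112280001-112285000), was at 46.0% to 55.5% and at 26.5% and 19.6%. Some of these losses depended on the CpGs and weights used. With 20 reads per CpG the difference at Glrx3 was -4.07 percentage points against -25.7 with 10 reads, and it was -14.9 as methylated over all reads. At Kdm7a it was -2.88 with 20 reads against -20.3.

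The Hox genes, developmental transcription factors in 4 clusters, held 5 of the 247 tiles among 77 tested within 10 kb of them (6.49%, against 0.554% of all tested tiles). By gene, 8 of 39 Hox genes with a tested tile had such a tile within 10 kb (Hoxa3 to Hoxa7, Hoxb2 to Hoxb4), where 220 of 16563 protein-coding genes did (1.33%). These 5 tiles lie in 2 clusters, where 1 tile can be within reach of several genes, and over all 77 tiles the median of hSTAT5BN642H minus the other libraries was 0.12 percentage points. The gene list was chosen with earlier results of these data known, so that these shares are a description and no enrichment is concluded. The tile overlapping Hoxa3 (chr6:52175001-52180000) had 41 CpGs and 1081 to 2076 reads per library. Its level was 70.1% and 73.3% in WT, 69.4% and 75.7% in hSTAT5B, and 41.7% and 46.0% in hSTAT5BN642H. Of its CpGs, 40 were lower in hSTAT5BN642H and 28 had both hSTAT5BN642H libraries below all others. Over all tested tiles 47.6% of CpGs were lower, and no such share was computed for the count of 28. The tile was chosen by the mean of these CpGs, so that both counts follow in part from the choice. The CpGs of this tile that had 5 or more reads in all libraries but under 10 in at least 1, which the choice did not use, numbered 23 and were 26.1 percentage points lower on average. Of the 12 tiles, 7 others had such CpGs. Their mean difference was -23.0 percentage points at Txndc5, -17.5 at Tpst2, -13.3 at Glrx3, and -9.52 at Ddx39. It was -0.34 over 13 CpGs at Ppp3cc, -1.32 at 1 CpG near Kdm7a, and 2.78 at 1 CpG near F2rl1.

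**Figure D2:**
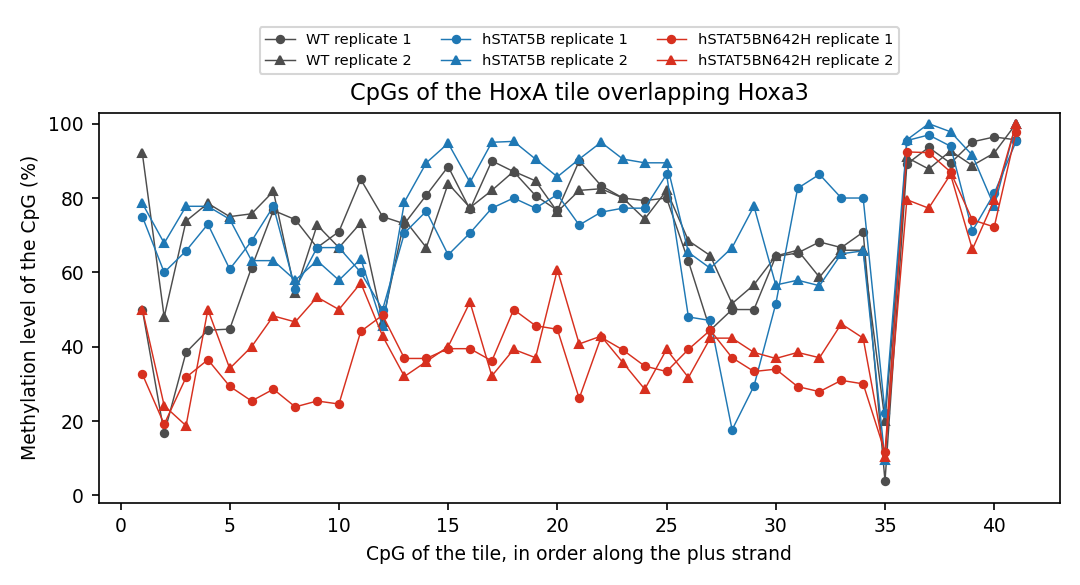
Methylation level in percent (y axis) of each of the 41 measured CpGs of the tile overlapping Hoxa3, in order along the plus strand (x axis), with 1 line per library. The hSTAT5BN642H lines run below the others over most of the CpGs and are both below all others at 28 of the 41. At the remaining CpGs, which include some in the middle and most of the highly methylated ones at the end, the libraries overlap. The tile was chosen by the mean of these CpGs, so that their separation follows in part from the choice.

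The other HoxA tiles were more methylated and less different. The tile overlapping Hoxa3 and Hoxa4 (chr6:52185001-52190000) was at 90.3% to 93.0% in WT and hSTAT5B and at 80.9% and 77.3% in hSTAT5BN642H. The tile overlapping Hoxa5 (chr6:52200001-52205000), with 45 CpGs the most of any of the 247, was at 93.2% to 95.1% and at 87.9% and 85.9%. In the HoxB cluster, a tile of Hoxb3 (chr11:96330001-96335000) was at 68.1% to 76.5% and at 56.6% and 49.6%, and another (chr11:96340001-96345000) at 78.7% to 89.4% and at 70.3% and 73.4%. With 20 reads per CpG the difference at the first was -29.2 percentage points against -19.1.

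Of 9 CD8+ T cell marker genes with a tested tile, 3 had one of the 247 tiles within 10 kb, against 1.33% of all protein-coding genes. This list, too, was chosen with earlier results of these data known, so that no enrichment is concluded. Cd8a and Cd8b1 encode the chains of the CD8 co-receptor, and Zap70 the kinase that binds the phosphorylated T cell receptor complex. The tile at the start of Cd8b1 and Smyd1 (chr6:71320001-71325000) was at 37.8% and 37.8% in WT, 18.8% and 17.5% in hSTAT5B, and 8.5% and 11.8% in hSTAT5BN642H. The genotypes did not overlap there. The tile holding the Cd8a start (chr6:71370001-71375000) was at 48.3% and 16.3% in WT, 14.8% and 26.4% in hSTAT5B, and 8.2% and 6.6% in hSTAT5BN642H. Its measured CpGs all lay in the gene, and none within 1 kb of a start. WT replicate 1 was the highest by a wide margin, and the other WT library lay within the range of hSTAT5B. The Zap70 start tile (chr1:36760001-36765000) was at 36.7% and 24.1%, then 23.7% and 23.1%, then 11% and 13.8%, although the mean over all measured CpGs within 10 kb of Zap70 was not lower. Without WT replicate 1 the mean loss was 11.8 percentage points at Cd8a against 19.1 with it, and 11.3 against 14.5 at Zap70.

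The other lists held none of the 247 tiles within 10 kb. This was so for 17 STAT5 target genes, 17 effector and memory genes of CD8+ T cells, 14 naive T cell genes, 14 inhibitory and costimulatory receptor genes, 18 JAK and STAT genes, 15 DNA methylation and polycomb genes, 24 cell cycle genes, 8 B cell, 8 myeloid, and 2 CD4+ T cell genes with a tested tile. At 1.33% of genes, fewer than 1 gene would be reached in each such list, so that a count of 0 says little. Gzmb is in the effector list, and its tile lies beyond the 10 kb.

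Bcl11b, a transcription factor required for T cell commitment, held 3 tiles. The adjacent ones (chr12:107920001-107930000) read 40.3% to 47.2% and 26.4% to 39.0% in WT and hSTAT5B. In hSTAT5BN642H they read 26.5% and 32.1%, and 11.4% and 15.9%. All 6 and all 13 of their CpGs were lower, as was so in 928 of the 44600 tested tiles. For the tiles chosen here this follows in part from the choice. The third tile (chr12:107975001-107980000), chosen for naming after its values were seen, was at 32.7% to 45% and at 17.9% and 15.9%. There were 2 other runs of adjacent tiles, upstream of Cdh22, a cadherin (chr2:165245001-165255000), and in the gene model Gm20388 (chr8:121375001-121385000). At Cdh22 the levels were 75.1% to 86.8% against 67% and 61.7% in the first tile and 91.6% to 96.7% against 82.6% and 85.1% in the second. At Gm20388 they were 79.5% to 84.6% against 74.1% and 74.2% in the first, and 59.7% to 68.1% against 50.3% and 49.5% in the second. With 5 reads per CpG the difference at the second was -6.90 percentage points against -12.8.

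Further genes of T cells and of their signalling were named after their values were seen, and support no statement about a class of genes. The tile at a start of Runx1, a transcription factor of T cell development (chr16:92695001-92700000, 32 CpGs), was at 48.2% and 53.8% in WT, 47.7% and 45% in hSTAT5B, and 28.5% and 29.7% in hSTAT5BN642H. Cxcr5, a chemokine receptor of follicular homing, was at 57.7% and 50.2%, then 38.7% and 47.0%, then 22.9% and 17.2%. Grap2, an adaptor of T cell receptor signalling, was at 29.4% to 55.3% against 16.2% and 13.2%. Zfp683, the transcription factor Hobit, stepped from 60.3% and 60.7% in WT to 48.6% and 50.2% in hSTAT5B and 43.2% and 38.5% in hSTAT5BN642H. At Lcp1, an actin-bundling protein of leukocytes, levels were 38.8% to 44.0% against 30.2% and 31.5%.

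Across the 247 tiles, hSTAT5BN642H was lower than the mean of WT and hSTAT5B by a median of 12.2 percentage points (quartiles 9.5 and 17.5, range 5.37 to 38.2). The median level over the tiles was 81.3% and 82.6% in WT, 80.9% and 81.5% in hSTAT5B, and 67.1% and 66.9% in hSTAT5BN642H, where over all tested tiles it was 87.5% to 89.0% in every library. Of the 2000 CpGs in these tiles, 1753 (87.7%) were lower in hSTAT5BN642H, against 47.6% of CpGs in all tested tiles. In 102 of the 247 tiles all CpGs were lower, as in 928 of the 44600 tested tiles. The rule used the means of these same CpGs, so that both counts follow in part from the choice. At the margin, the 3 tiles just inside were those of Dab1, Creld1, and Sgms2, with gaps of 5.03, 5.01, and 5.01 percentage points. The 3 just outside were those of Kcnk2, Slc10a2, and, beside the J segments of the T cell receptor alpha locus, Dad1, with gaps of 4.99, 4.98, and 4.95 percentage points. At Sgms2 the libraries were at 90.1%, 90.9%, 90.2%, and 90.6% against 85.1% and 85.1%, and at Dad1 at 31.3%, 21.5%, 18%, and 20.7% against 13.1% and 4.6%. As methylated over all reads the difference at Sgms2 was -2.92 percentage points against -5.37.

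The same rule was applied to the 14 other pairs of libraries as a measure of noise. It gave 23 to 113 tiles, with a median of 47.5, the highest count coming from the WT pair. The pairs that joined an hSTAT5BN642H library with a WT or hSTAT5B library gave 23 to 68. At wider margins the count was smaller and its ratio to the highest other pair larger. A gap of at least 10 percentage points was found in 62 tiles for hSTAT5BN642H and in 0 to 10 for other pairs, and one of at least 15 in 24 and in 0 to 2. The widest gap was 36.2 percentage points against 9.4 to 22.3. The median gap of 7.47 against 5.65 to 6.93 shows that many of the 247 tiles were of the size that other pairs also gave. In the opposite direction, 208 tiles were higher in both hSTAT5BN642H libraries, against 11 to 87 (median 40) for the other pairs.

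**Figure D3:**
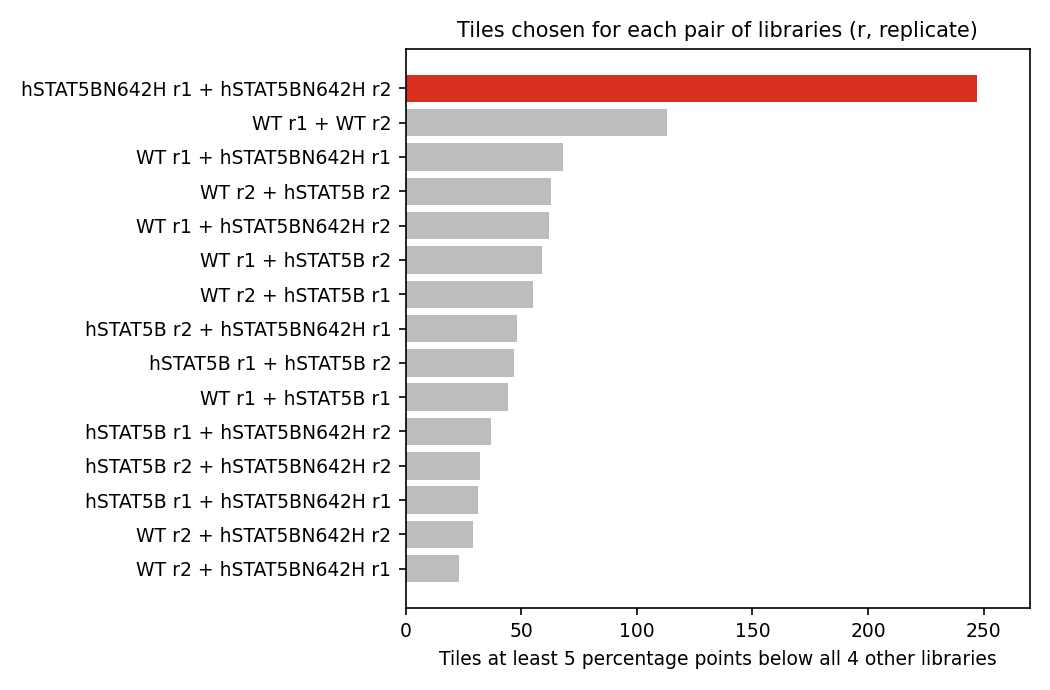
Number of tiles (x axis) at least 5 percentage points below all 4 other libraries for each of the 15 pairs of libraries (y axis, r for replicate). The hSTAT5BN642H pair, in red, gave 247 tiles and the next pair, the 2 WT libraries, 113.

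The tiles were found at most base levels, taken as the mean of WT and hSTAT5B. Of the 247, 133 were at 80% or more, 70 at 50% to 80%, 41 at 20% to 50%, and 3 below 20%. Per tile tested this was 0.306% at 90% to 100%, 2.15% at 40% to 50%, and 0 of 7968 below 10%, where a loss of 5 percentage points has little or no room. The other pairs gave, on average, 10.4 tiles at 90% to 100% and 3 at 40% to 50%, against 65 and 20 here. The median loss was 10.2 percentage points at 80% or more, 14.3 at 50% to 80%, and 16.9 below 50%.

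**Figure D4:**
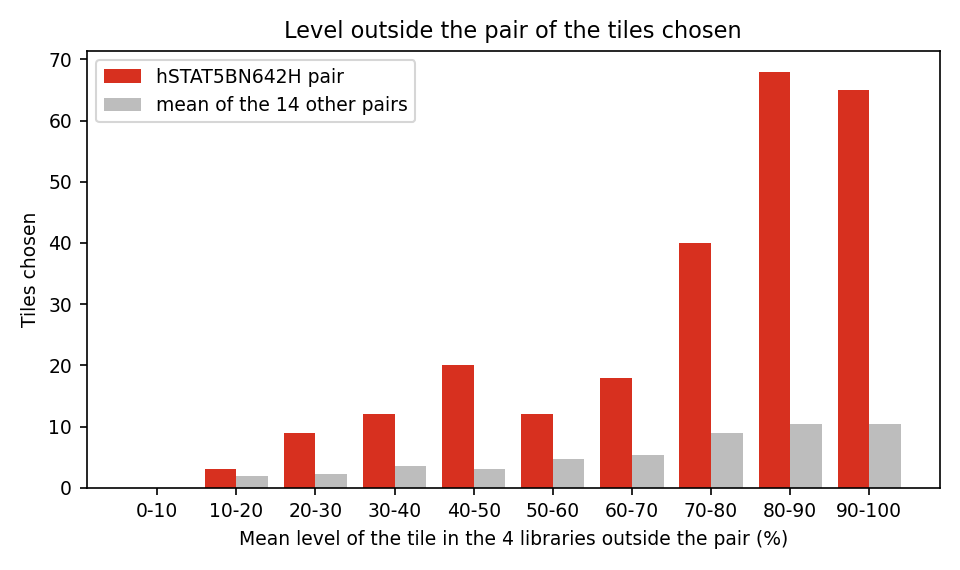
Number of tiles chosen (y axis) by the mean level, in percent, of the 4 libraries outside the pair (x axis), for the hSTAT5BN642H pair (red) and as the mean of the 14 other pairs (grey). Red bars are highest at 80% to 100%, with 68 and 65 tiles, and no tile below 10% was chosen.

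A transcription start of a protein-coding gene was in 29 tiles (11.7%) against 25.1% of all tested tiles, and in 6.90% to 25% (median 14.8%) of the tiles that the rule gave for the 14 other pairs, so that the share was within the range of these pairs. CpGs in a CpG island were in 29 (11.7%) against 27.0% of all tested tiles. Among tiles below 50%, starts were in 29.5% against 71.8%, and among those at 80% or more in 6.02% against 3.25%. Of the 13611 tested tiles below 50%, 7968 were below 10%, where the rule had little or no room and chose 0. The lower shares of islands, and of starts below 50%, can therefore follow from the rule, and nothing is concluded from them. No island share is given for the other pairs. Overlap with a protein-coding gene was alike, at 60.7% and 60.0%, and 20.2% lay over 50 kb from a start and outside genes, against 22.5%. Measured CpGs lay mostly in repeats in 9.31% of the tiles against 26.5%. The repeat share was not matched for base level and is not given for the other pairs, so that nothing is concluded from it. By chromosome, the share ranged from 0.277% on chromosome 16 to 0.864% on chromosome 17. The tiles had a median of 6 measured CpGs against 8, and 34.0% against 21.4% were at the minimum of 5.

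Only 119 of the tiles adjacent to the 247 could be tested, and 6 of them (5.04%, against 0.554% of all tested tiles) were themselves among the 247. At 10 kb 8 of 100 (8%) were, at 20 kb 0 of 76, and at 50 kb 6 of 94 (6.38%). Among the adjacent tiles the other 113 had a median difference of -0.56 percentage points against -0.41 for all tested tiles outside the 247. At a distance of 100 kb the tiles formed 227 groups, of which 17 held 2 or more. The largest groups had 3 tiles and lay in HoxA, at Bcl11b, and at Drc1 and Otof (chr5:30340001-30385000). CpGs with under 10 reads in at least 1 library and 5 or more in all were not used in the choice, and were described in the same libraries. They were present in 179 of the tiles, with a median difference of -4.68 percentage points, and were lower in 127 (70.9%), against 50.8% of all tested tiles with such CpGs. They can share fragments with the CpGs that were used and come from the same mice, so that they are no independent check of the loss. The shares were not matched for base level.

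The comparison of hSTAT5B with WT was not used in choosing the tiles, since the rule treats these libraries alike. hSTAT5B was below WT by a median of 0.59 percentage points in the 247 tiles and above WT by 0.15 over all tested tiles. Both hSTAT5B libraries were below both WT libraries in 67 tiles (27.1%, against 15.2% of all tested tiles), and both were above in 17 (6.88%, against 18.7%). A difference of 5 percentage points or more was seen downwards in 37 tiles (15% against 3.04%) and upwards in 11 (4.45% against 3.87%). By base level, below 50%, hSTAT5B was lower in 33 of 44 tiles with a median of -2.53 percentage points, against -1.17 at 50% to 80% and -0.27 at 80% or more. Against WT replicate 2 alone these medians were -1.85, -2.12, and -0.78, and hSTAT5B was lower in 65.9%, 65.7%, and 65.4% of the tiles (75% and, at the higher levels, 64.3% and 61.7% with both WT libraries). Of all tested tiles at these levels, hSTAT5B was lower in 47.2%, 46.3%, and 46.1% with both WT libraries. Against WT replicate 2 alone it was lower in 48.2%, 51.1%, and 51.2% of them. The direction in the 247 tiles was thus kept without WT replicate 1, and the order by base level was not. In contrast, the nearest start to the tile with the largest excess of hSTAT5B over WT, 17.8 percentage points, was that of Adgrl2, an adhesion receptor, with 64.9% and 69.6% in WT, 83.6% and 86.4% in hSTAT5B, and 57.6% and 55.0% in hSTAT5BN642H (chr3:149180001-149185000, chosen for naming after its values were seen).

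**Figure D5:**
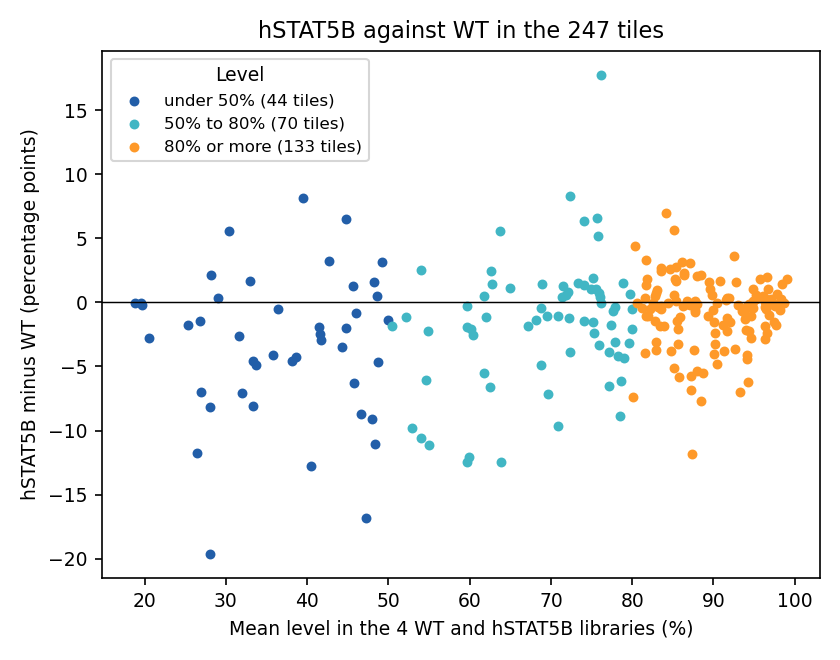
Difference of hSTAT5B minus WT in percentage points (y axis, mean of 2 libraries each) against the mean level in percent of these 4 libraries (x axis), with 1 point for each of the 247 tiles, coloured by level. Most of the points below 50% lie under the line at 0, 33 of 44 (75%, against 47.2% of all tested tiles at this level).

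With limma on the log2 ratio of methylated to unmethylated reads, hSTAT5B against WT gave 0 calls among 44600 tiles at an adjusted p of 0.05 (Benjamini-Hochberg, lowest 0.731). At an unadjusted p under 0.05, 1173 tiles (2.63%) were lower and 1545 (3.46%) higher, and among the 247 tiles 12 were lower and 5 higher. The same model for hSTAT5BN642H against the 4 other libraries, which is the contrast of the rule, gave 0 calls (lowest adjusted p 0.516), with 2640 tiles (5.92%) lower and 1143 (2.56%) higher at an unadjusted p under 0.05. This contrast chose the 247 tiles, so that these counts are given as background only.

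The number of reads per tile was a separate readout. The tiles had 57 to 2552 reads per library. By limma-voom on reads per tile, 30 of 44600 tiles (0.0673%) differed between hSTAT5BN642H and the other libraries at an adjusted p of 0.05, 21 lower (0.0471%) and 9 higher (0.0202%). Of the 247 tiles 0 did (lowest limma-voom adjusted p 0.131, at Casz1). At an unadjusted limma-voom p under 0.05, 27 of the 247 were lower and 9 higher, against 2518 (5.65%) and 2461 (5.52%) of all 44600 tested tiles. By sign alone, reads were lower in 60.7% of the 247 tiles, against 48.4% of all tested tiles. The median log2 difference in reads of the 247 tiles was -0.07 against 0.01 over all tested tiles. When all CpGs were counted whatever their depth, it was 0.13 against -0.11, so that its direction turned with the CpGs counted. Without WT replicate 1, reads at 2 of the tiles, those of Casz1 and Pou4f3, were called lower in hSTAT5BN642H (log2 differences -0.82 and -1.12, limma-voom adjusted p 0.0285 and 0.0132).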

How the data were processed

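Reads were trimmed with Trimmomatic, aligned to GRCm38 (mm10) with BSMAP in RRBS mode, and converted to CpG methylation by the authors with Python scripts. A deposited file lists every CpG with its methylated reads over all reads as text (other than a plain number), and the authors' score, the methylated share on a scale to 1000, which was used only to check these counts. Replicates were not pooled.

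Genes were taken from GENCODE M21, CpG islands were called on the GRCm38 sequence by the UCSC rule, and sequences are from RefSeq GRCm38. A tile was named by the protein-coding gene with most bases in it, otherwise by the nearest start. Named were the 12 tiles with the widest gap, those within 10 kb of a gene of the lists, runs of adjacent tiles, and 3 tiles on either side of the margin. The tiles and gene lists were chosen with earlier results of these data known.

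limma was fitted on log2((methylated + 1)/(unmethylated + 1)) reads per tile over all 44600 tiles, with the 6 libraries in 1 model. Reads per tile were tested by limma-voom with scaling by trimmed means, in place of the planned edgeR count model, which was not run. Code was tested on simulated data. The same replicate number did not mark paired libraries (correlations of deviations -0.0034, -0.0075, and 0.017). Alternatives covered the minimum of reads and CpGs, the margin, weighting, shifted tiles, CpGs with 1000 or more reads, the offset, a mean-variance trend, and leaving out each library. Depth is given with the results. RNA and ChIP data were not analysed here.

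The tests ran in R 4.3.3 with limma 3.58.1, the remaining steps in Python 3.11.15 (pandas 2.3.3, numpy 2.4.6, scipy 1.17.1), and figures were drawn with matplotlib 3.10.9.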

Additional observations from a re-analysis of the deposited data

How the results depend on the processing

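The number of tiles lower in both hSTAT5BN642H libraries was 247 and moved with the filters. It was 450 with 5 reads per CpG, 94 with 20 reads, 744 with 3 CpGs, 48 with 10 CpGs, 660 at 3 percentage points, and 62 at 10 percentage points. In each of these settings, and also with methylated over all reads (326 tiles) and tiles shifted by 2500 bases (246 tiles), it exceeded that of every other pair of libraries, the highest of which were 193, 36, 301, 25, 295, 10, 146, and 117. Without 1 library, which makes the rule easier to meet, it was 347 to 1017. It was 464 without WT replicate 1, 347 without WT replicate 2, and 384 and 411 without hSTAT5B replicate 1 or 2. The highest of the other sets of libraries were then 174, 178, 244, and 252. Without hSTAT5BN642H replicate 1 or 2 it was 1017 and 919. Each other single library then gave 376 to 832 and 379 to 850, so that in ratio these counts were the nearest to the other sets. Of the 247 tiles, 144 were chosen again with methylated over all reads, 172 with 5 reads, and 64 of the 85 still testable with 20 reads, so that the list itself depends on the weighting.

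The median loss was -11.8 to -12.7 percentage points with 5 reads, 20 reads, methylated over all reads, shifted tiles, or 1 library left out. With 1 library left out, the medians were taken over the same 247 tiles. Medians were not computed for the other numbers of CpGs or the other margins. The median level of the tiles in WT and hSTAT5B was 84.5% with 5 reads, 83.3% with 20 reads, 79.4% with methylated over all reads, 82.8% with shifted tiles, and 81.4% to 82.7% without 1 library, against 81.9%. The median of hSTAT5B minus WT in the tiles was -0.31 to -1.07 percentage points in the settings for which it was computed. At the named tiles, 1 of 247 values turned, at Creld1, where hSTAT5BN642H was 7.66 percentage points higher with 5 reads per CpG, and 46 moved by more than the spread between replicates.

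Calls by limma on levels were 0 in every alternative, including a replicate block. Calls on reads per tile were 30, and 14 with a replicate block, 11 with all CpGs, and 0 to 76 without 1 library (0 without hSTAT5BN642H replicate 1, 76 without WT replicate 1, 54 without hSTAT5BN642H replicate 2, 6 and 11 without hSTAT5B replicate 1 or 2). With 1 library left in a genotype, it was assumed to vary like the others. DESeq2 was planned as an alternative for these reads and was not run. Size factors by median ratios, chosen after seeing the data, gave 26 calls. Depth limits the precision, since reads per tile and library were as few as 57.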

Other observations

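Values at 2 genes that are known to be imprinted in at least some tissues are given here, and were noticed only after the values were seen. Whether the parental alleles differ in methylation at these tiles was not tested. A tile of Snrpn (chr7:60005001-60010000) was at 74.2% and 67.5% in WT, 83.1% and 71.4% in hSTAT5B, and 57.9% and 58.1% in hSTAT5BN642H. A tile of Slc22a3 (chr17:12505001-12510000) was at 57.8% and 66.2%, then 58.8% and 68.1%, then 48.8% and 48.2%. Neither overlaps between hSTAT5BN642H and the other libraries, as the choice required, and no list of imprinted genes was examined, so that nothing is said of imprinted genes as a class.

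A pair of tiles lay 18384 and 28384 bases from the start of Thy1, a surface marker of T cells, beyond the 10 kb of the list. The nearer one had 21 CpGs and was at 69.7% to 73.5% in WT and hSTAT5B and at 61.3% and 63.7% in hSTAT5BN642H. A tile beside the T cell receptor alpha locus (chr14:54230001-54235000) was at 60.1% to 72.5% and at 51.8% and 51.7%. These tiles were also named after their values were seen.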
